A study of Mus musculus with 8 samples.

Results

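In the aortic smooth muscle library of Apoe-deficient mice after 4 months of high fat diet, 51 of 1235 sorted cells carried a large amount of Col2a1, the gene for the chain of type II collagen. Unique molecular identifiers (UMIs, 1 per captured transcript) were recovered from the deposited values, and a cell was a member when Col2a1 made up at least 0.1% of its UMIs. The 51 cells are 4.13% of the library (exact Clopper-Pearson 95% interval 3.09 to 5.39%, counting error only) and belong to a series of 13056 cells in 8 libraries. They were compared with the 1184 cells of the same library under that threshold, called the other cells. The members were chosen by their measured Col2a1 UMIs and all genes were read in the same cells, so every value below is a description with no test. Each library is 1 sample and cells are not replicates.

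The series asked how smooth muscle cells of Apoe mice differ from those of Apoe mice that also lack the TGF-beta receptor Tgfbr2 in smooth muscle, under high fat diet. Ascending aortas were digested, the smooth muscle fraction was sorted by GFP, and droplet libraries were made on the 10x Chromium system. The groups called Apoe here are Apoe-/- mice on the diet labelled ND or on high fat diet (HFD) for 1, 2 or 4 months (Apoe ND, 1M, 2M and 4M), and the groups called KO carry the smooth muscle Tgfbr2 knockout on the same Apoe-deficient background and diets (KO ND, 1M, 2M and 4M). Apoe deficiency is thus shared by all 8 groups, and each group has 1 library. The promoter that drives GFP and the knockout, the number of animals behind a library and their age are not given in the sources used here.

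Type II collagen is the main fibril collagen of hyaline cartilage and is made by chondrocytes under the transcription factor Sox9, together with type IX and XI collagens, the proteoglycan aggrecan (Acan) and small leucine-rich proteins such as chondroadherin (Chad). Bone and mineralising cartilage add the acidic proteins bone sialoprotein (Ibsp) and osteopontin (Spp1) and the phosphatase Alpl. Vascular smooth muscle cells normally express contractile genes such as Acta2 and Myh11. In atherosclerotic and aneurysmal arteries, cells of smooth muscle origin with a cartilage-like expression profile are well described.

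Across the 8 libraries the total ran from 9407669 UMIs (Apoe 4M) to 19720109 (Apoe 2M), and the median cell from 6966 to 10988 UMIs. Each library carries a detection limit, since genes with UMIs in fewer than 5% of its cells have the value 0 there. In Apoe 4M a listed gene therefore had UMIs in at least 62 cells, so that a gene confined to the 51 members could not appear, and 9482 genes had values. A gene with UMIs in fewer than 62 other cells passed this limit only with the members. Counts of higher genes below include such genes. Of the cell barcodes in Apoe 4M, 29 also occur in another library, among them 1 of the 51 members, whose barcode is also in KO ND. Without these 29 cells there were 533 genes at least 2-fold higher and 3244 genes at least 2-fold lower in the members, against 534 and 3240 with them.

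The Col2a1-high cells were the deeper cells of the library. Their UMI counts ran from 5383 through a median of 13940 to 25595, against a median of 6847.5 in the other cells, and 38 of the 51 were among the deepest 10% of the library. They held 7.65% of its UMIs. Contractile transcripts were scarce in all of them: the 24 genes of the contractile list took 0.149% of the UMIs of the lowest member, 0.308% at the median and 0.728% in the highest, while in the other cells the median share was 4.86%. The other cells spread over a wide range, and 146 of them had a contractile share under 1%. These 146, called contractile-low cells, are used as a closer comparison. The remaining 1038 are called contractile-high cells. The limit of 1% was set after the values were seen, and 36 other cells lay between 0.75 and 1% and 34 between 1 and 1.5%. The median contractile-low cell had 7008.5 UMIs, so these cells share the low contractile share but not the depth of the members. The part of depth in the results was not tested. No member had a contractile share near that of the contractile-high cells, whose lowest share was 1.04%.

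**Figure D1:**
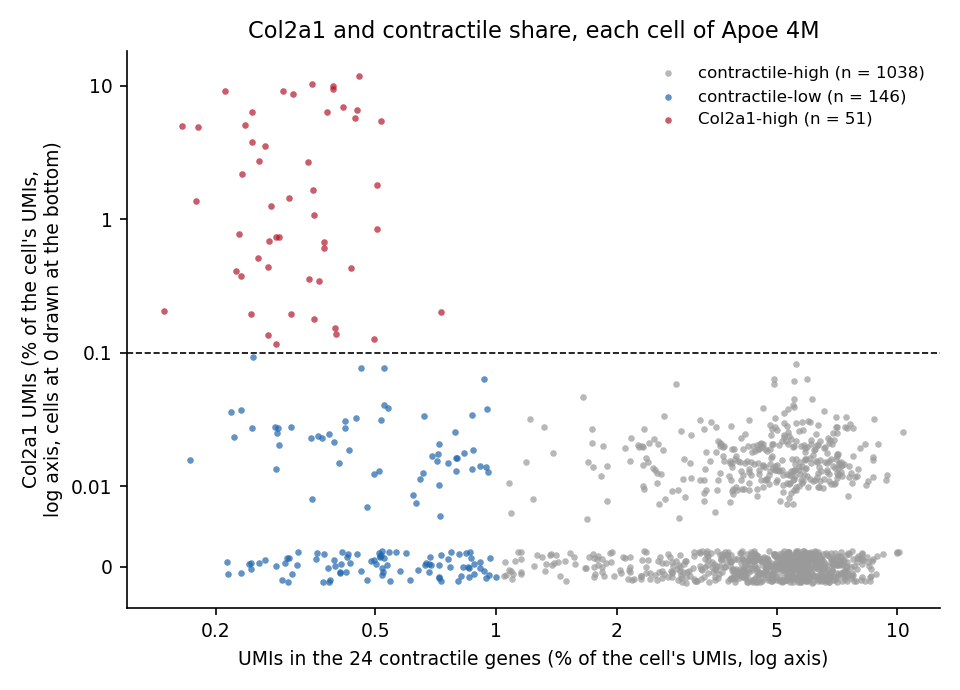
Each point is 1 cell of Apoe 4M, with the share of its UMIs in 24 contractile genes on the x axis and the share in Col2a1 on the y axis (both in % on log axes, cells with 0 Col2a1 UMIs drawn at the bottom), and the dashed line is the 0.1% threshold. The 51 Col2a1-high cells all sit at a contractile share of 0.728% or less, and no cell combines a Col2a1 share above the threshold with a larger contractile share.

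Col2a1 itself (chromosome 15, 97975602 to 98004695, minus strand, GRCm38) made up 0.117% of the UMIs of the lowest member, 1.27% at the median and 11.9% in the highest, or 7, 207 and 1737 UMIs. The members held 97.7% of all Col2a1 UMIs of the library. Among the other cells 783 had no Col2a1 UMI and 401 had at least 1, with a median of 1 UMI and a maximum of 12. The 8 members nearest the threshold had shares of 0.117 to 0.196%, and the 10 other cells nearest to it had 0.0581 to 0.0937%. Of those 10 cells, 4 had a contractile share under 1%. The member range is thus continuous down to the threshold, and a gap separates neither side.

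Cytl1, a small secreted cytokine-like protein of cartilage, was present in every member. Its level was 2.12, 183 and 699.7 UMIs per 10000 UMIs of the cell at the lowest, median and highest member. The other cells ranged from 0 to 817.9 with a median of 0, so the highest other cell lay above every member. Over summed UMIs Cytl1 stood at 19605 CPM (UMIs of the gene scaled to 1000000 UMIs of the class) in the members, 479 in all other cells and 3146 in the contractile-low cells.

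Chad, chondroadherin, which binds type II collagen and integrins, was found in 46 of the 51 members. It ran from 0 through 93.4 to 389.1 UMIs per 10000 in the members and from 0 to 198.4 in the other cells. Its summed level was 11634 CPM in the members, 111 in the other cells and 559 in the contractile-low cells.

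Ibsp, a sialoprotein of bone and mineralising cartilage that can nucleate hydroxyapatite, was found in 47 members. Its values per 10000 UMIs were 0, 76.7 and 385.2 in the lowest, median and highest member, and the highest other cell had 226.7. The summed level was 9575 CPM in the members, 67.3 in the other cells and 395 in the contractile-low cells. Only 9.25% of contractile-high cells had any Ibsp UMI, and the highest of them had 9.05 per 10000.

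Spp1, the related secreted phosphoprotein osteopontin, was found in 49 members but did not separate them. Its level was 0, 31.1 and 480 UMIs per 10000 in the lowest, median and highest member, and the highest other cell reached 1387. The summed level was 7810 CPM in the members, 533 in the other cells and 3113 in the contractile-low cells.

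Comp, a pentameric glycoprotein of cartilage and tendon matrix, had the smallest ratio of the 6 markers. It had UMIs in 38 members, with 0, 2.78 and 151.1 per 10000 at the lowest, median and highest, and the highest other cell also had 151. Its summed level of 1708 CPM in the members compares with 265 in the other cells but 1395 in the contractile-low cells, a log2 ratio of only 0.29 against the latter.

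**Figure D2:**
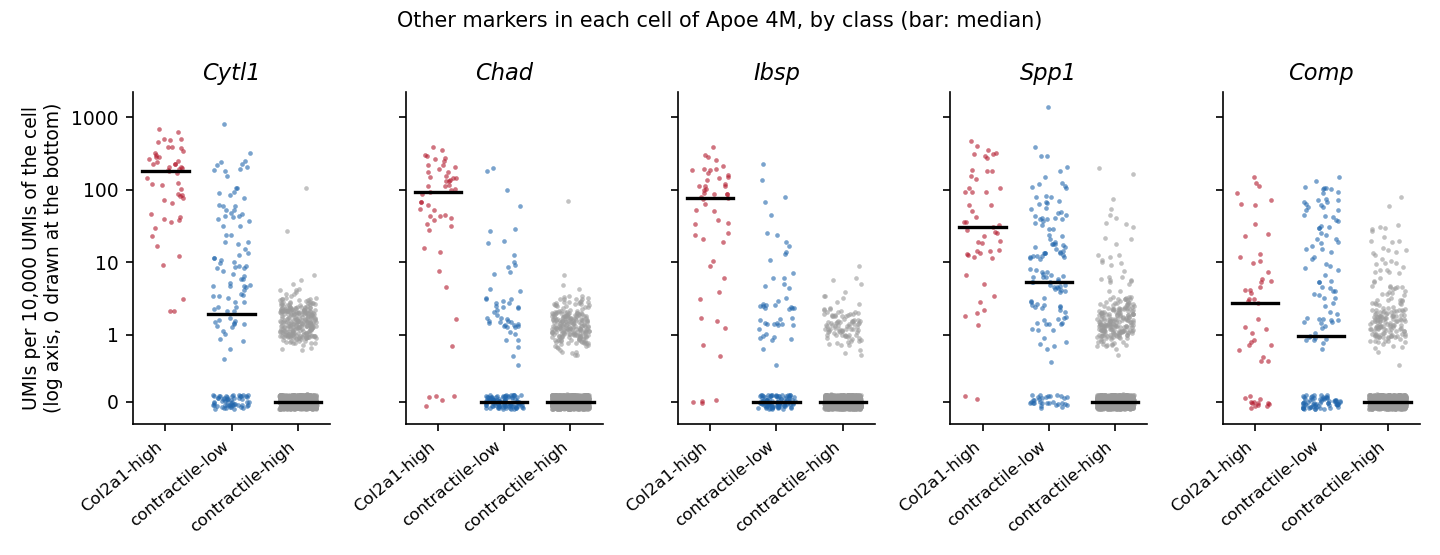
Each point is 1 cell of Apoe 4M, the y axis gives UMIs per 10000 UMIs of the cell (log axis, cells at 0 drawn at the bottom), columns are the Col2a1-high (51), contractile-low (146) and contractile-high (1038) cells, and black bars are medians. The medians of the Col2a1-high cells are 183 for Cytl1, 93.4 for Chad, 76.7 for Ibsp, 31.1 for Spp1 and 2.78 for Comp, and single contractile-low cells reach the same height for each gene.

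At the threshold used for Col2a1, 0.1% of the cell's UMIs, the other 5 markers gave partly different cells. Cytl1 passed it in 47 members and 45 other cells, Chad in 42 and 11, Ibsp in 38 and 12, Spp1 in 41 and 77, and Comp in 13 and 60. All 5 passed in 9 of the 51 members, and in 0 of the other cells. At least 3 of the 5 passed in 41 members, in 17 of the 146 contractile-low cells and in 2 of the 1038 contractile-high cells. Those 17 contractile-low cells, chosen here for these markers, had between 0 and 11 Col2a1 UMIs each, with a median of 0, beside 16955 CPM of Cytl1, 4390 of Chad, 2873 of Ibsp and 4673 of Comp. As other cells, these 17 were held under 0.1% Col2a1 by the rule, so their low Col2a1 is no separate result. At this threshold Col2a1 and the other markers did not pass in the same set of cells.

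Low counts of the markers were spread over cells that kept their contractile genes. Of the contractile-high cells 33.2% had a Col2a1 UMI, 26.1% a Cytl1 UMI and 21.3% a Chad UMI, at a median depth of 6811 UMIs against 13940 in the members. After each cell was thinned to 3000 UMIs, which left out 0 members and 4 other cells, the Col2a1 share was 16.2% in the contractile-high cells (exact binomial 95% interval 13.96 to 18.5%), 21.2% in the contractile-low cells and 100% in the members. In droplet data free RNA gives such UMIs to any cell. Per Col2a1 UMI there were 0.603 Cytl1, 0.358 Chad and 0.295 Ibsp UMIs in the members, 0.969, 0.695 and 0.268 in the contractile-high cells and 31.5, 5.61 and 3.96 in the contractile-low cells. Other genes had ratios further apart between the members and the contractile-high cells, with 0.240 and 2.16 for Spp1, 0.0526 and 1.505 for Comp, 0.0406 and 0.592 for Acan and 0.0306 and 1.09 for Sox9. The rule picked the members for high Col2a1 and kept all other cells under 0.1%. It thus bears on all these ratios and on the 100% of members after thinning. The part of free RNA was not tested.

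The annotated starts of these genes were read for sequence. RefSeq promoters of GRCm38.p6 were found for Cytl1, Chad, Ibsp and Spp1 among the 6 markers, and the 250 bases before the start were searched on both strands for ACAAT, the core of sites bound by Sox proteins, and TGTGGT, the core of sites bound by Runx proteins. The sequences of Cytl1, Ibsp and Spp1 are shown for marker genes that differ most in how they follow Col2a1, and Myl9, the contractile gene with the smallest ratio, is shown beside them. Capitals mark ACAAT or TGTGGT on either strand in the markers and a CArG box, the site of serum response factor, in Myl9.
Cytl1, chr5:37735269-37735518, plus strand: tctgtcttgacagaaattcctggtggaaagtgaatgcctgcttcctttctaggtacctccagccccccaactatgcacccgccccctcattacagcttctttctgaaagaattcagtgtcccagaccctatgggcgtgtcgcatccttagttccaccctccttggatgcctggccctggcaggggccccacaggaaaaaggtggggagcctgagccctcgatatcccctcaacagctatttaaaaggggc
Ibsp, chr5:104299037-104299286, plus strand: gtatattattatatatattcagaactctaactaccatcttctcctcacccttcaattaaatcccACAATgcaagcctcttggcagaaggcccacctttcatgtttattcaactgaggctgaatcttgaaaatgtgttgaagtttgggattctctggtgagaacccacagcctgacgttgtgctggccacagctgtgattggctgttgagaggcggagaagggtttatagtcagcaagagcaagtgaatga
Spp1, chr5:104434861-104435110, plus strand, the first listed start: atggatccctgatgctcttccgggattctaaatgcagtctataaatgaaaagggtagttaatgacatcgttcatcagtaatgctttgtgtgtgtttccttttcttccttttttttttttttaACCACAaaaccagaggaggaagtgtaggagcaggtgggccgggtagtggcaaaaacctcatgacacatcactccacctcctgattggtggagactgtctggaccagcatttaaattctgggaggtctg
Myl9, chr2:156775214-156775463, plus strand: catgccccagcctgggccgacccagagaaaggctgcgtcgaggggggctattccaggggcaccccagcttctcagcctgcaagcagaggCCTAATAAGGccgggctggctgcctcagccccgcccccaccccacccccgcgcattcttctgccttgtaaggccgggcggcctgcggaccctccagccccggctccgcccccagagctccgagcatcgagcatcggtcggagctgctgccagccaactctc
Ibsp held 1 ACAAT and Spp1 held 1 TGTGGT on the opposite strand, while Cytl1 and Chad held neither. Among 32536 RefSeq promoters of the same length, 27.4% hold ACAAT, 13.96% TGTGGT and 1.48% a CArG box. Starts in GENCODE vM21 can differ from those of RefSeq, and the Ibsp window printed above runs into the GENCODE gene. In GENCODE vM21 Ibsp and Spp1 both lie on the plus strand of chromosome 5, at 104299171 to 104311469 and 104435118 to 104441050.

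The split of all genes into higher and lower depended on the scale. At least 2-fold higher levels than in the other cells were found for 534 of 9482 genes (5.63%) and at least 2-fold lower levels for 3240 (34.2%), with a median log2 ratio over all genes of -0.58. Genes with 0 UMIs in a class were entered at 3 UMIs, the number that a count of 0 allows. The markers, cartilage and bone lists took 16.6% of the UMIs of the members against 2.15% in the other cells. When the median over genes was set to 0, there were 1359 genes at least 2-fold higher and 1747 genes at least 2-fold lower. Differences of mean deposited log2 values turned the split, with 186 higher and 97 lower. Without the deepest 10% of cells, which leaves 13 members, the median was -0.01 and the counts were 927 and 1828. Against the contractile-low cells 491 of 9332 genes (5.26%) were at least 2-fold higher and 2236 (24%) lower, with a median of -0.38. Between the contractile-low and the contractile-high cells themselves the counts were 560 (5.91%) and 1432 (15.1%) of 9482.

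Apart from the markers, the 9 genes with the largest ratios among those with at least 200 UMIs were Chil1 (1353 against 8.06 CPM), Col9a3 (855 against 6.33), Col11a2 (865 against 7.94), Snorc (1210 against 12.3), Alpl (429 against 5.87), Fap (243 against 4.95), Cnmd (333 against 7.48), Fam180a (671 against 15.4) and Hp (349 against 9.09), with log2 ratios from 7.39 to 5.26. Chil1, Col9a3, Col11a2 and Alpl had UMIs in 57, 35, 52 and 43 other cells. The 4.95 CPM of Fap also amounts to fewer than 62 UMIs in the other cells. These genes passed the listing limit of 62 cells only with the members, where they are high. Chil1, a secreted chitinase-like protein of chondrocytes and inflamed tissue, had UMIs in 16 members only, and 1 cell held 53.4% of them. Without that cell its log2 ratio was 6.33 in place of 7.39. Hp, the haemoglobin-binding plasma protein haptoglobin, was similar, with 35.9% in 1 cell and a log2 ratio of 4.65 without it in place of 5.26. Measured by the gain in CPM, the leading genes after the markers were Sparc (48662 against 2610), Cst3 (36048 against 6343), Col1a2 (11704 against 1285) and Col1a1 (6927 against 925).

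The listed cartilage collagens were higher. All 4 listed genes of 8 were at least 2-fold higher, beside 5.63% of all genes. Their median log2 ratio was 6.92 beside -0.58 over all genes. All 4 were also higher than in the contractile-low cells (median 4.98). Col2a1 is one of them and was used by the rule. Col9a3, a chain of the type IX collagen that decorates type II fibrils, had UMIs in 47 members, and Col11a2, a chain of the type XI collagen inside those fibrils, in 44. They had UMIs in 35 and 52 other cells, so both passed the listing limit of 62 cells only with the members. The count for this list is therefore no separate support. Col27a1, a fibril collagen of developing cartilage, stood at 629 CPM against 26.8.

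Among cartilage proteoglycans and matrix proteins, 9 of 14 listed genes were at least 2-fold higher and 1 lower (median 3.36). Over all genes 5.63% were higher and 34.2% lower. Acan, the large proteoglycan that binds water in cartilage, had 0, 11.6 and 35.11 UMIs per 10000 at the lowest, median and highest member and a summed level of 1318 CPM against 50.6 in the other cells and 158 in the contractile-low cells. Fmod, fibromodulin, which binds collagen fibrils, stood at 1450 against 38.0 CPM and Omd, the keratan sulfate proteoglycan osteomodulin, at 883 against 41.2. Snorc, a transmembrane proteoglycan of chondrocytes, was found in 30 members and Cnmd, the vessel-inhibiting protein chondromodulin, in 24, so these 2 genes were absent from the counts of many members. In the contractile-low cells Snorc stood at 10.1 and Cnmd at 8.39 CPM, levels like the 12.7 and 7.34 of the contractile-high cells. Prg4, lubricin of the cartilage surface, stood at 344 against 24.4 CPM. Ogn, osteoglycin, was the 1 lower gene, at 104 against 752 CPM.

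Over all genes 5.63% were at least 2-fold higher and 34.2% lower, while all 7 listed small secreted proteins of cartilage were higher (median 3.87). Besides Cytl1 these included Mia (183 against 7.60 CPM), whose protein is secreted by chondrocytes and melanoma cells, 1500015O10Rik (5725 against 335), which encodes augurin, and Pcolce2 (1303 against 89.3), an enhancer of procollagen cleavage. Mia had UMIs in 4.81% of the other cells, under the 5% needed for listing, so it was listed only through the members. Of the 10 listed cartilage transcription factors 5 were higher and 1 lower, with a median of 0.91. Sox9, the regulator of chondrocyte fate, had UMIs in 50 members, with 0, 7.73 and 30.87 per 10000 at the lowest, median and highest. Its level was 996 CPM against 119 in the other cells and 479.8 in the contractile-low cells. Its partners in cartilage, Sox5 (34.7 against 13.2 CPM) and Sox6 (56.9 against 11.4), and Trps1 (206 against 44.5), a repressor in growth plate chondrocytes, were also at least 2-fold higher. Sox8 was lower on 4 UMIs. Runx2 was listed at 0 in this library. Over the 4 cartilage lists together, 25 of 35 listed genes were higher and 2 lower, with a median of 2.69, and against the contractile-low cells the median was 1.17. The higher genes include some listed only through the members.

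Of 17 listed bone and mineralisation genes 11 were higher and 4 lower (median 2.62), beside 5.63% and 34.2% over all genes. Ibsp led with a log2 ratio of 7.15, followed by Alpl, the phosphatase that releases phosphate for mineral (34 members, 6.19), and Pth1r, the receptor for parathyroid hormone and its related peptide (40 members, 587 against 22.3 CPM). Alpl and Pth1r were also far above the contractile-low cells, at 9.23 and 29.4 CPM there. Alpl had UMIs in 43 other cells and passed the listing limit of 62 cells only with the members. Sparc, the collagen-binding protein osteonectin, was present in every member at 37.6, 465 and 1012 UMIs per 10000. The highest other cell had 395.5, below the member median. Genes that oppose mineral formation were mixed. Enpp1, which makes the inhibitor pyrophosphate, stood at 210 against 34.2 CPM and Ank, which exports it, at 393 against 93.9. Tnfrsf11b, osteoprotegerin, the decoy receptor that limits osteoclast formation, stood at 2515 against 225 CPM. Mgp, the matrix Gla protein that inhibits calcification, was within 2-fold at 9430 against 12277 CPM, and below the 22903 CPM of the contractile-low cells. Bmp4 and Msx1 were lower, on 4 and 6 UMIs, and Postn, periostin, stood at 210 against 772 CPM. Bglap, Sp7 and Dmp1 were listed at 0.

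The enzymes that build and sulfate proteoglycan chains differed in part. Of 19 listed genes 7 were higher, 2 lower and 10 within 2-fold, with a median of 0.24. Over all genes 5.63% were higher and 34.2% lower. Xylt1, which starts the chains (249 against 11.6 CPM), Papss2, which makes the sulfate donor (239 against 13.8), Chst11, a chondroitin sulfotransferase (70.8 against 8.403), and Slc26a2, the sulfate transporter (65.3 against 13.6), were higher. Papss1, the other isoform of the donor enzyme, was within 2-fold at 22.2 against 33.7 CPM.

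Collagens that are not particular to cartilage were also higher. Of 10 listed interstitial collagens 9 were at least 2-fold higher and 1 lower (median 2.39), beside 5.63% and 34.2% over all genes. Col1a2, a chain of type I collagen, was followed by Col1a1, Col5a2 (1144 against 196 CPM) and Col6a3 (585 against 102), while Col14a1 was lower at 11.1 against 46.7. Type I and II collagen chains were thus both high in the same cells. Genes of collagen processing differed less: of 20 listed genes 5 were higher and 0 lower (median 0.72). They were led by the transcription factor Creb3l1 (253 against 73.9 CPM) and Pcolce (242 against 82.0). Serpinh1, the collagen chaperone HSP47, stood at 1641 against 728. Pcolce stood at 314 CPM in the contractile-low cells, above the members. Unfolded protein response genes were mostly within 2-fold (15 of 19, with 2 higher and 2 lower, median 0.02).

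**Figure D3:**
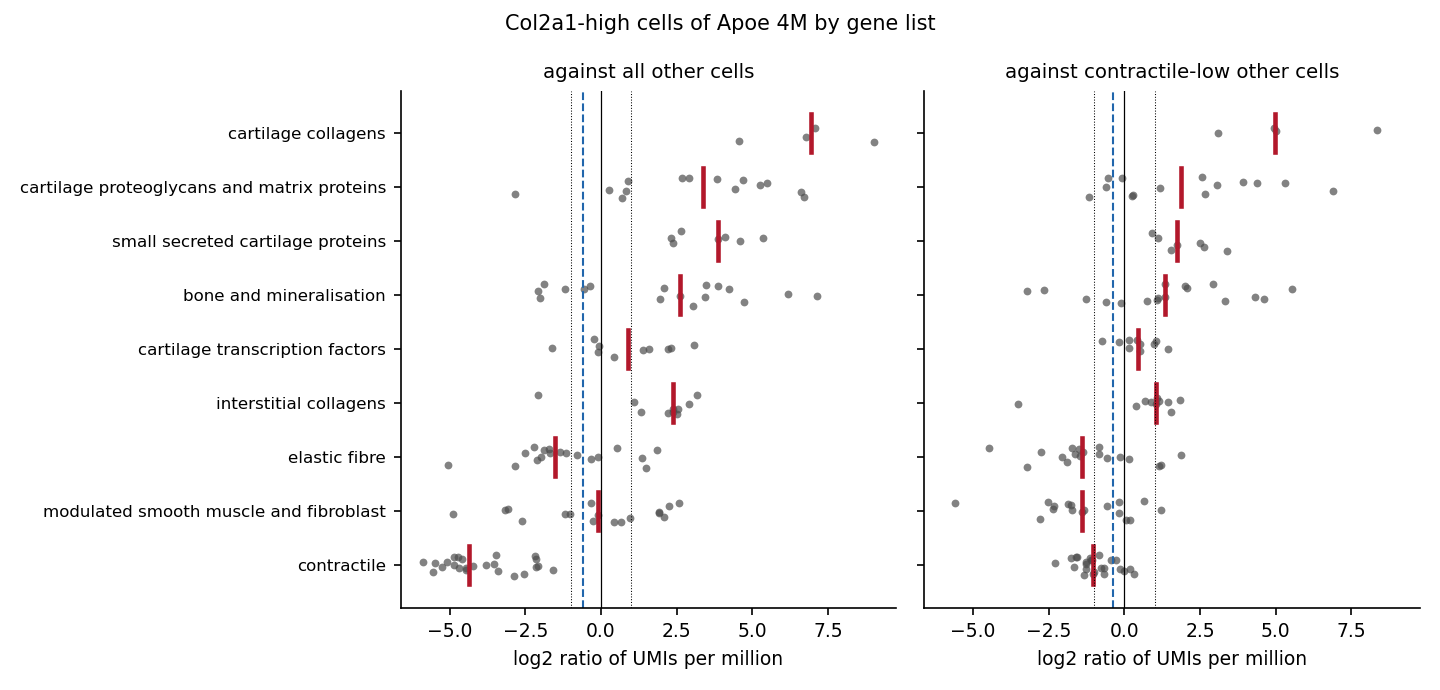
Each grey point is a listed gene, with its log2 ratio of CPM in the 51 Col2a1-high cells over all 1184 other cells (left) or over the 146 contractile-low cells (right), red bars are list medians, dotted lines mark 2-fold and the blue dashed line is the median of all listed genes. List medians run from 6.92 (cartilage collagens) to -4.36 (contractile) on the left, and the contractile median is -1.05 on the right.

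The contractile genes were lower without exception. All 24 were at least 2-fold lower than in the other cells, with a median log2 ratio of -4.36, while over all genes 34.2% were lower. Acta2, smooth muscle actin, had 0, 3.72 and 17.21 UMIs per 10000 at the lowest, median and highest member, against a median of 135 in the other cells, and stood at 490 against 12880 CPM. Myh11, the smooth muscle myosin heavy chain, had UMIs in 19 members (37.5 against 1772 CPM), Myl9, the regulatory light chain, in 38 (95.8 against 5631), and Lmod1, an actin nucleator, in 14 (19.4 against 875). Tagln stood at 23.6 against 903 CPM. The contractile-low cells were chosen for low levels of these genes, and against them 14 of the 24 were still at least 2-fold lower and 0 higher (median -1.05), with Acta2 at 981, Myh11 at 82.2 and Myl9 at 289 CPM there. Outside the list, the actin monomer-binding protein Tmsb4x showed one of the largest losses, from 11251 to 504 CPM, and was also below the 3507 CPM of the contractile-low cells.

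Several of the smallest ratios rested on 1 or 2 UMIs in all members. Gucy1a1 and Gucy1b1, the subunits of the nitric oxide receptor guanylate cyclase, had 1 and 2 UMIs against 1392 and 1268 in the other cells, log2 ratios of -6.85 (95% counting interval -12.155 to -4.37) and -5.72 (-8.76 to -3.86). Optc, Aoc3, Mgst1, Gabra3 and Tmem252 also had 1 UMI each. Mgst1, a microsomal glutathione transferase, stood at 106 CPM in the contractile-low cells and 118 in the contractile-high cells, so that its low level was shared with neither class. Itih4 and St5 had 6 and 4 UMIs.

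Elastic fibre genes were mostly lower: 11 of 18 were at least 2-fold lower and 3 higher, with a median of -1.52. Mfap4, a microfibril-associated protein, stood at 43.0 against 1447 CPM and Eln, elastin, at 318 against 1833. Only 25 members had an Eln UMI and 1 cell held 53.3% of them. Without it the log2 ratio was -3.60 in place of -2.53. The enzymes that crosslink elastin and collagen went the other way, with Lox at 772 against 213 CPM and Loxl2 at 58.3 against 20.7, as did Ltbp2 (301 against 117). Of 12 basement membrane genes 5 were lower and 0 higher (median -0.78), near the 34.2% lower and the median of -0.58 over all genes. The lower ones included Col18a1 at 111 against 775 CPM and Lamb2 at 84.7 against 337.

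Of 17 listed genes of fibroblasts and modulated smooth muscle cells 5 were higher and 6 lower, with a median of -0.09. Over all genes 5.63% were higher and 34.2% lower, with a median of -0.58. Fn1, fibronectin (6829 against 1446 CPM), Timp1 (1432 against 241), Lgals3 (1223 against 288), Dcn (7678 against 2018) and Cd44 were higher than in the other cells. Against the contractile-low cells only Timp1 was at least 2-fold higher and 10 were lower (median -1.41). There Lum, lumican, stood at 6580 CPM against 2477 in the members, Vcam1 at 1453 against 251, and Ly6a, the surface antigen Sca1, at 472 against 9.72. Ly6a had UMIs in 5 of the 51 members and in 89 of the 146 contractile-low cells. Thinned to 3000 UMIs per cell these numbers were 0 of 51, which allows a share of cells with a UMI of up to 6.98% (exact binomial 95% limit), and 62 of 146. Of 16 matrix proteases and inhibitors 5 were higher and 7 lower, beside 5.63% and 34.2% over all genes. Mmp2 stood at 439 against 88.2 CPM and Adamts2 at 13.9 against 104.

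Signalling genes showed some single large values. Of 17 TGF-beta genes 3 were higher, 5 lower and 9 within 2-fold (median -0.20), while over all genes 5.63% were higher and 34.2% lower (median -0.58). Against the contractile-low cells 1 of the TGF-beta genes was at least 2-fold higher and 3 were lower. Thbs1, a thrombospondin that activates latent TGF-beta, stood at 794 against 105 CPM, the ligand Tgfb1 at 392 against 118 and the target Ccn2 at 3940 against 1314. The receptor Tgfbr2 was within 2-fold, at 43.0 against 55.6 CPM, with UMIs in 18 members. The name of the deposited table says that the receptor was removed, yet it has values there, so what they hold is uncertain. Tgfbr1 stood at 74.99 against 96.1. The inhibitor Smad7 was lower at 90.3 against 235 CPM. In the BMP list 2 of 14 were higher and 6 lower (median -0.89), to be read beside the same shares over all genes. The lower genes included the target Id3 (299 against 2163 CPM) and also Id1, Id2 and Id4. The ligand Bmp2, counted in the bone list, stood at 461 against 42.9 CPM, the BMP antagonist Chrdl1 at 114 against 10.0 and the related ligand Gdf10 at 521 against 76.9.

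Stress, immune and metabolic genes are set here beside all genes, of which 34.2% were lower and 5.63% higher. Of 24 immediate early and heat shock genes 18 were lower and 0 higher (median -1.76), with Hspa1a at 65.3 against 809 CPM and Egr1 at 232 against 1730. For Fos (440 against 3117 CPM) 1 cell held 41.6% of the member UMIs. Of 14 interferon genes 12 were lower and 0 higher (median -1.47), Ifitm3 at 171 against 594 CPM. In the complement and inflammation list 7 of 14 were lower and 2 higher. Serping1, the inhibitor of the first complement enzyme, stood at 5.55 CPM (4 UMIs) against 122 in the other cells. The 2 higher genes, Lcn2 and Cxcl1, had 48.6% and 60.0% of their UMIs in 1 cell each. Without that cell the log2 ratio was 2.22 in place of 3.15 for Lcn2 and 0.20 in place of 1.495 for Cxcl1. Of 21 glycolysis genes 8 were lower and 2 higher, of 16 respiratory chain genes 3 were lower and 0 higher, and the 8 listed transcripts of the mitochondrial genome were all within 2-fold. Cholesterol synthesis had a median of 0.62, with 4 of 11 higher and 1 lower, and was led by Cyp51 at 55.5 against 9.55 CPM. Gpx3 led the iron and antioxidant list, at 447 against 32.7 CPM, where 4 of 15 were higher and 2 lower. Among 5 listed cell cycle genes Cdkn1a, the inhibitor p21, was higher at 1408 against 486 CPM and the others were within 2-fold.

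Markers of other cell types could be read only in part. All 13 macrophage, 11 lymphocyte and 7 erythroid and platelet markers were listed at 0, under the detection limit that would also hide a gene confined to the members. Of 12 endothelial markers only Pecam1, Esam and Fabp4 were listed, with 2, 0 and 52 UMIs in the members. Their summed level was 0.0075% of member UMIs and at most 0.0299% in any member, against 0.0246% in the other cells. Of 8 Schwann cell markers only S100b was listed, which chondrocytes also express, at 243 against 9.67 CPM, while Sox10 was listed at 0. Of 6 listed pericyte markers 5 were lower, and 10 of the 51 members and 522 of the 1184 other cells had UMIs of at least 3 of them. No doublet caller was run.

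The members differed among themselves along the amount of Col2a1. Ordered by Col2a1 share and cut into 3 bins of 17 cells, the median share was 6.63%, 1.27% and 0.202%, the median depth 14810, 16018 and 12938 UMIs, and the median contractile share 0.348, 0.288 and 0.308%. Among genes with at least 200 UMIs in the top and bottom bins together, 19 of 298 (6.38%) were at least 2-fold higher in the top bin and 23 (7.72%) lower. The bins use the same counts as the rule, and a cell with a large Col2a1 share has less room for other genes.

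Cartilage collagens and their partners were high in the top bin. Col9a3 stood at 1820, 438 and 197 CPM in the top, middle and bottom bin, Pth1r at 851, 710 and 98.7, Comp at 2181, 2338 and 296, and Cnmd at 582, 340 and 14.8. Acan had a smaller range, with 2026, 1012 and 834 CPM. Ibsp stood at 12241, 10325 and 5270 CPM. Cytl1 was highest in the bottom bin, at 16091, 18086 and 25971 CPM. Chad differed less between bins, at 10907, 11081 and 13264 CPM. Spp1 (3384, 9732 and 10817) and Mgp (3673, 10544 and 15154) were lowest in the cells with most Col2a1. Clu, the extracellular chaperone clusterin, stood at 325, 3796 and 4525 CPM. Thus Ibsp and Spp1, whose promoters are shown above, had opposite orders within the members.

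**Figure D4:**
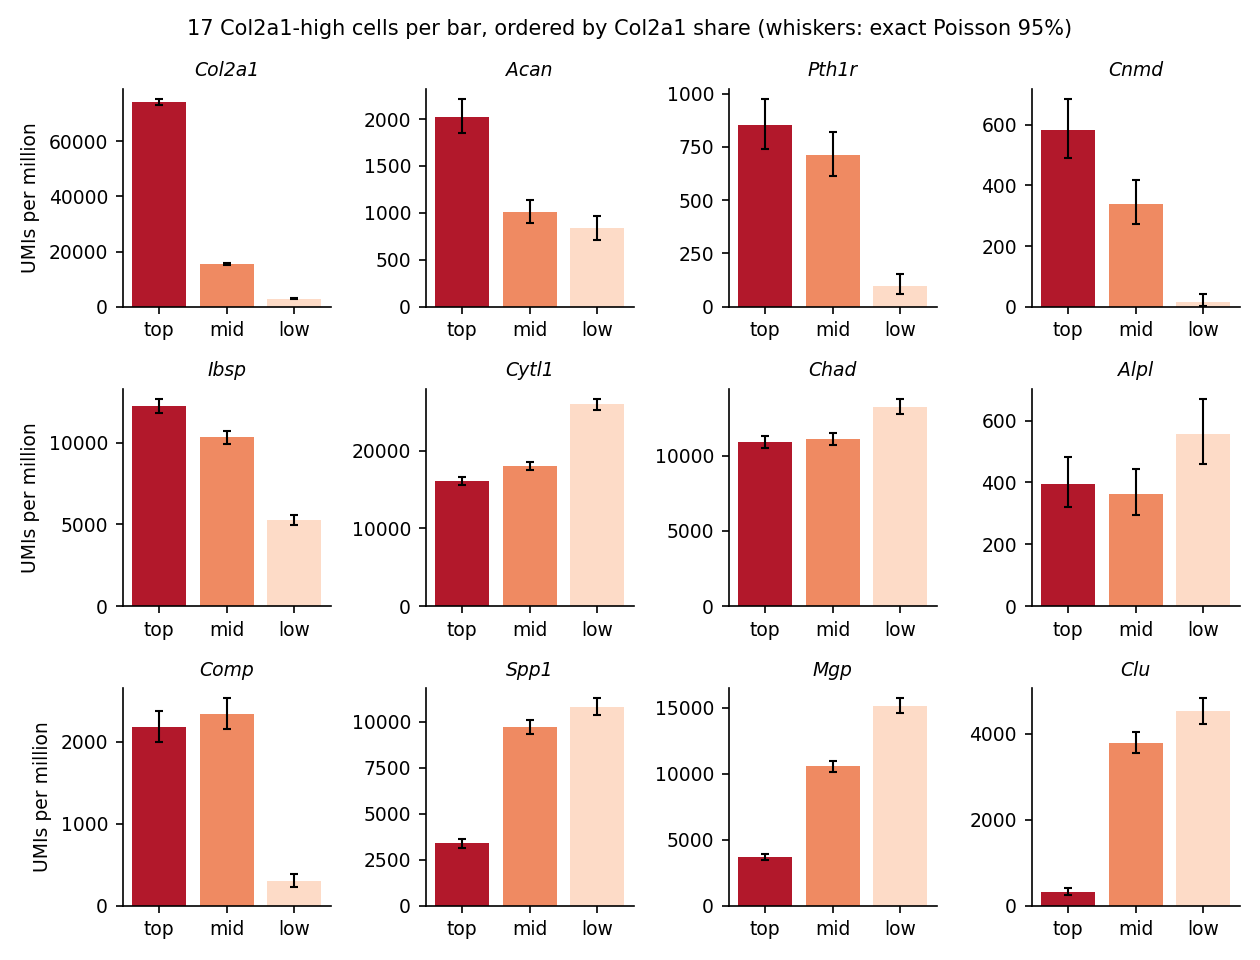
Bars give CPM summed over 17 Col2a1-high cells each, for the cells with the largest (top), intermediate (mid) and smallest (low) Col2a1 share, with exact Poisson 95% intervals for counting error as whiskers. Col2a1, Pth1r, Cnmd and Ibsp are lowest in the bottom bin, and Spp1, Mgp and Clu are lowest in the top bin.

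Across the 51 cells, which share 1 library and differ in depth, Spearman's rho between per-cell shares was 0.65 for Col2a1 and Acan, 0.60 for Col2a1 and Sparc, 0.41 for Col2a1 and Ibsp, 0.15 for Col2a1 and Chad, -0.19 for Col2a1 and Cytl1 and -0.45 for Col2a1 and Spp1. Ibsp, Chad and Alpl varied together, with rho of 0.69 for Chad and Ibsp, 0.73 for Ibsp and Alpl and 0.72 for Chad and Alpl. Ibsp and Prg4 had a rho of -0.52. In the 38 members with Ibsp at 0.1% or more, Alpl stood at 572 CPM against 31.5 in the 13 members under it, Chad at 14487 against 3706 and Col2a1 at 41948 against 6214. Prg4 (181 against 798 CPM) and Mgp (7122 against 15846) were higher in those 13 cells. Sox9 differed little, at 1018 and 934 CPM, and so did the median depth, at 14069 and 13738 UMIs.

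The same rule was then applied to the other libraries. Col2a1 was listed at 0 in 5 of the 8, Apoe ND, 1M and 2M and KO ND and 1M, so members could not be counted there. The listing limit would still allow up to 70 cells with a Col2a1 UMI in Apoe ND, 74 in 1M and 132 in 2M. The like number in Apoe 4M was 452 cells with a Col2a1 UMI, of which 51 passed the rule. Chad, Ibsp, Cytl1 and Spp1 were listed at 0 in the same 3 Apoe libraries. Acan, which was listed in all 4, stood at 16.2, 12.1, 19.1 and 148 CPM over all cells of Apoe ND, 1M, 2M and 4M, and Sox9 at 35.8, 33.5, 55.1 and 186. In the 4M cells with a contractile share of at least 3% the values were 30.1 for Acan and 45.4 for Sox9. Cells with a contractile share under 1% numbered 4, 1, 4 and 197 in the 4 Apoe libraries.

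Col2a1-high cells were found in both later KO libraries. In KO 2M they were 57 of 2253 (2.53%, interval 1.92 to 3.27%), and in KO 4M they were 1402 of 1577 (88.9%, interval 87.2 to 90.4%). In KO 4M 1576 cells had a Col2a1 UMI, and 36 of the 72 cells with a contractile share of at least 3% passed the rule, which none of the Apoe 4M members did. The rule thus also takes in some KO 4M cells with a contractile share not seen among the Apoe 4M members. The median contractile share was 0.203% in the KO 4M members and 0.308% in the Apoe 4M members. In the KO 4M cells under the threshold Col2a1 stood at 772 CPM, and the part of free RNA was not tested. KO values come from a table normalized apart from the Apoe table, and are compared here as CPM.

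Summed over cells, Col2a1 was higher in the Apoe 4M members, at 32493 CPM, than in those of KO 2M (11385) and KO 4M (12705). Each set of members was chosen by this gene. The 17 Apoe 4M members with the largest Col2a1 share held 18741 of the 23399 Col2a1 UMIs of the Apoe 4M members. The median Col2a1 shares lay closer together, at 1.27% for Apoe 4M members, 0.76% for KO 2M members and 0.71% for KO 4M members. Cytl1 stood at 19605, 4414 and 5888 CPM in the same order, Chad at 11634, 5094 and 6246, and Ibsp at 9575, 5920 and 2513. Spp1 was intermediate (7810, 10930 and 5261). Comp (1708, 3191 and 3683), Snorc (1210, 3730 and 3430), Col9a3 (855, 1669 and 1498) and Cnmd (333, 2630 and 4592) were lowest in the Apoe members. Among genes listed in both libraries with at least 200 UMIs in either set of members, 92 of 711 (12.9%) were at least 2-fold higher in Apoe 4M than in KO 2M and 119 (16.7%) lower. Against KO 4M 339 of 6687 (5.07%) were higher and 867 (13%) lower. The median log2 ratio over these genes was -0.40 and -0.26. Genotype, library and, for KO 2M, diet time cannot be told apart.

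Elastic fibre genes were mostly higher in the Apoe members than in the KO members. Of 7 such genes 5 were at least 2-fold higher in the Apoe 4M members than in those of KO 2M and 1 lower (median 3.16), and of 12 genes 9 were higher than in KO 4M and 3 lower (median 2.31). The TGF-beta list had a median of 3.22 over 5 genes against KO 2M and 0.39 over 16 genes against KO 4M. Lox, lysyl oxidase, stood at 772, 28.1 and 18.4 CPM in the members of Apoe 4M, KO 2M and KO 4M. Eln stood at 318, 5.61 and 16.9 CPM. Without the member that held most Eln its log2 ratio was 4.75 in place of 5.82 against KO 2M and 3.17 in place of 4.24 against KO 4M. Such differences were not confined to the members. In the cells under the threshold Eln stood at 1833, 386 and 492 CPM in Apoe 4M, KO 2M and KO 4M, and Ccn2 at 1314, 218 and 487. Ltbp2 (301 against 12.9 CPM) and the kinase gene Srpk1 (1046 against 60.2) were among the 6 largest differences against KO 4M, and Col8a1 (479 against 13.5) and Cxcl1 (486 against 12.3, with 60.0% of its UMIs in 1 cell and a log2 ratio of 4.00 without it in place of 5.30) against KO 2M. Lmcd1, a LIM domain cofactor, was among the 6 in both, at 1326 CPM against 67.4 and 72.6. So was Gm29216, annotated as an unprocessed pseudogene, whose reads may belong to a near-identical copy.

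Genes lower in the Apoe members than in KO members included Cnmd in both comparisons, with log2 ratios of -2.98 against KO 2M and -3.78 against KO 4M. Against KO 2M the others were Tubb2a, Myl9, Cd24a, Hmox1 and Asns, with log2 ratios from -2.49 to -2.20. Hmox1, haem oxygenase, stood at 294 against 1421 CPM. Against KO 4M they were Gm12918, a processed pseudogene whose reads may belong to its parent gene, Gt(ROSA)26Sor, Ifit3, Foxf1 and Atoh8, of which all but Gm12918 had 1 or 2 UMIs in the Apoe members. Of 14 cartilage proteoglycan and matrix genes 8 were lower than in KO 4M and 0 higher, with a median of -1.20. In the contractile list 2 of 18 genes were higher and 3 lower than in KO 4M (median -0.01), and 0 of 5 were higher and 3 lower than in KO 2M (median -1.05).

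**Figure D5:**
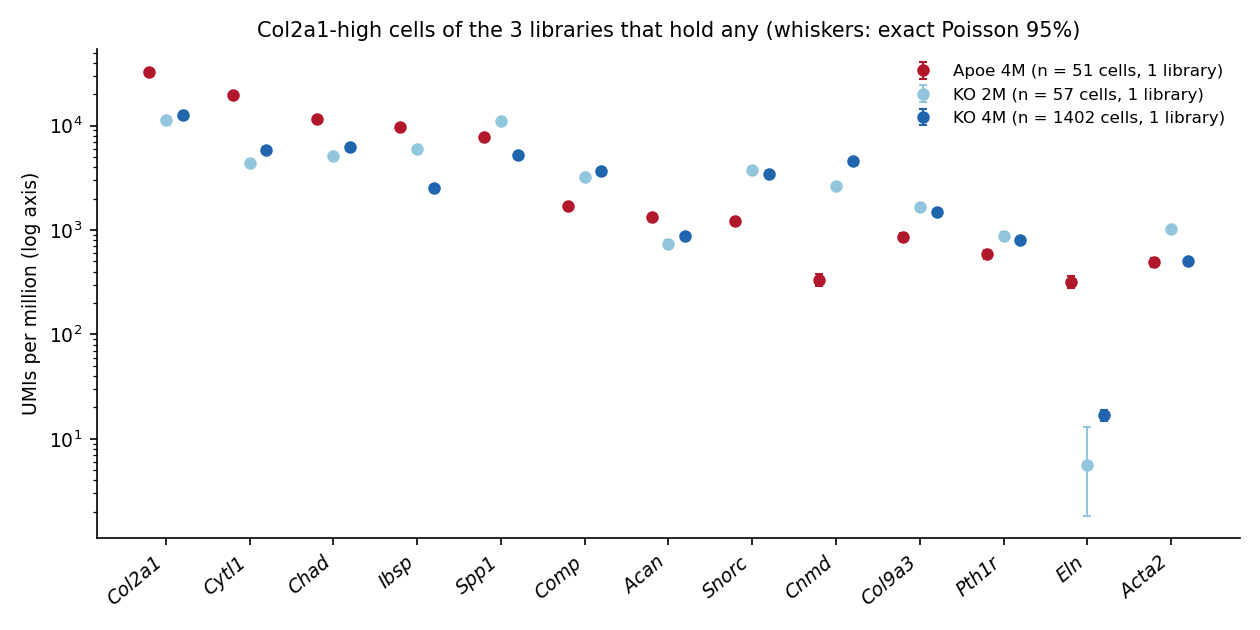
Points give CPM (log axis) summed over the Col2a1-high cells of Apoe 4M (51 cells), KO 2M (57) and KO 4M (1402), 1 library each, with exact Poisson 95% intervals for counting error as whiskers. Col2a1, Cytl1, Chad, Ibsp and Eln are highest in Apoe 4M, and Comp, Snorc, Cnmd and Col9a3 are lowest there.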

How the data were processed

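The authors deposited log2 values per cell and gene, and the file names mention TMM scaling. Per the submitters' processing notes the tools were UMI-tools, STAR, featureCounts, Subread 1.6.0, with the build GRCm38. The annotation release was not given in the sources used here. In all there are 6 deposited matrices, of which those used were the time course of each genotype and the 4 month table of both genotypes. No column of per-sample values was left unused (0). The values behave as log2 of 1 plus a scaled UMI count. The log2 and the added 1 were undone and each entry divided by the lowest nonzero entry of the same cell, which returned whole UMIs for 100% of entries (tolerance 0.01). Symbols and coordinates come from GENCODE vM21 (10333 of 10338 identifiers matched).

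UMIs were summed over the cells of a class and divided by the class total. With 1 library per group no test was possible. Intervals are exact Poisson, exact Clopper-Pearson or exact conditional intervals of a ratio at 95% and cover counting error only. UMIs are molecules, but cells of 1 library share their source. A gene was called at 2-fold. Classes with 0 UMIs entered at 3 UMIs. Of 187 listed genes with 0 UMIs in the members, 155 were called lower this way. No cell was removed and no doublet caller was run. The threshold, the thinning to 3000 UMIs, the scaling and the comparison cells were varied, as the closing section reports. Calculations used Python 3.11.15, numpy 2.4.6, scipy 1.17.1 and pandas 2.3.3. The class ratio was tested on simulated counts.

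The members, markers and gene lists were chosen with earlier results of these data known. Named genes are the markers, the 12 largest and 12 smallest log2 ratios and the 8 largest gains and losses in CPM among genes with at least 200 UMIs, the 4 largest absolute ratios of each list, and the 6 largest differences each way from KO members. Other listed genes are named as background to their list, after their values were seen. The limit of 1% for contractile-low cells, the comparisons with these cells, and the values without single cells or shared barcodes were also chosen after seeing the data.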

Additional observations from a re-analysis of the deposited data

How the results depend on the processing

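No paired analysis was possible because each group has 1 library and every result comes from classes of cells within a library. The number of Col2a1-high cells was 61, 43 and 35 at thresholds of 0.05, 0.2 and 0.5%, 55 after thinning to 3000 UMIs and 51 in the table of both genotypes. With any Col2a1 UMI as the rule it was 452, with 124 genes higher, 30 lower, and medians of -0.31 for the contractile list and 1.04 for the cartilage lists. Without the deepest 10% of cells 13 members were left, with 927 genes higher and 1828 lower. Setting the median over genes to 0 gave 1359 genes at least 2-fold higher and 1747 genes at least 2-fold lower. Mean deposited log2 values gave 186 and 97, and medians of -1.97 and 1.22. With at least 200 UMIs per gene the counts were 312 and 1879, and at 1.5-fold 1027 were higher. Against the contractile-low cells the medians were -1.05 and 1.17, and against other cells with a contractile share under 2% the contractile median was -1.79. All other settings kept both counts within 1.5 times and both medians inside their order-statistic intervals (-4.85 to -2.88 and 1.57 to 4.42). Of the named genes called at 2-fold, 40 of 124 kept the call with any Col2a1 UMI and 68 of 124 with mean deposited log2 values. Against the contractile-low cells 94 of 121 kept it, and 97 of 124 at the 2% limit. After thinning 107 of 119 kept it, without the deepest 10% of cells 103 of 118, and with the median set to 0 115 of 124. The remaining settings kept at least 120 of 124. Some of the called genes changed sign. With any Col2a1 UMI the log2 ratio of Nqo1 became 0.12, the log2 ratio of Eln 0.0712, the log2 ratio of Cxcl12 0.0907 and the log2 ratio of Ifi27l2a 0.30. After thinning the log2 ratio of P3h1 became -0.11 and the log2 ratio of Hyou1 0.29. Without the deepest cells the log2 ratio of Fdps became 0.40. Against contractile-low cells the log2 ratio of Cp became -0.22 and the log2 ratio of Pcolce -0.38. At the 2% limit they were -0.0658 and -0.10, and the log2 ratio of Egln3 was 0.0134. The cause was not tested. Depth limits low genes: over the 720118 UMIs of the members, a gene with 0 UMIs could still have up to 3.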

Other observations

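Within the members, 10 cells had fewer than 3 of the other 5 markers at 0.1% of their UMIs. In these 10 cells Col2a1 stood at 7657 CPM, Cytl1 at 13566, Chad at 665 and Ibsp at 441, while Mgp stood at 16652. The 17 contractile-low cells with at least 3 of those markers had Mgp at 20448 CPM, Sparc at 15231, Acan at 498 and Sox9 at 889, with Alpl at 61.3 and Snorc at 38.3, and a median depth of 6945 UMIs. Both sets were chosen after their values were seen and are given as values only.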
